A study of Mus musculus with 12 samples.

Results

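The Western diet was compared with the control diet in mouse hearts taken on postpartum day 1, the day after delivery. This comparison used 6 of the 12 libraries of the series, 3 from control diet (CD) and 3 from Western diet (WD) postpartum hearts, chosen by their labels. All mice were wild-type C57BL/6J females aged 27 to 29 weeks. The series asks if metabolic syndrome leads to harmful cardiac remodelling with pregnancy. Before breeding the mice were fed for 15 weeks, either a control diet (10% of kcal from fat) or a Western diet (45% of kcal from fat, 17% from sucrose). The other 6 libraries came from nonpregnant females kept on the same diets without breeding, and are used here to share the estimate of spread and to set the same diet difference beside the postpartum one. The labels name a diet, a state and a library number, without saying whether each library is another animal. The p-values therefore measure the spread between libraries, which may be technical.

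A heart draws most of its energy from fatty acids. These enter the cell through transporters, are bound to coenzyme A by synthetases, cross into mitochondria on carnitine, and are shortened there by beta-oxidation; peroxisomes shorten the very long chains, and lipid droplets store the rest as triglyceride. PPAR alpha, a nuclear receptor that fatty acids activate, turns on many of the genes along this route, among them Pdk4, whose enzyme slows the entry of glucose carbon into the mitochondrion.

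Total counts ran from 25611052 to 29492416 in the 3 control diet libraries and from 22912896 to 25472803 in the 3 Western diet libraries. Cardiomyocyte markers summed to 89593 to 100152 CPM (counts scaled by library size) over the 6 libraries. The atrial markers Myl7 and Sln lay between 0 and 0.194 CPM in all 6. Of the other atrial markers, Myl4 stood at 1.57 to 2.18 CPM and Nppa at 42.3 to 98.8 CPM. The 10 atrial markers together summed to 135 to 208 CPM, and how much atrial muscle the libraries held was not tested. Control diet replicate 3 stood apart by genes of fat tissue. Ucp1, which uncouples brown fat mitochondria, reached 73 CPM there against at most 0.544 CPM in any of the other 11 libraries, Cfd (adipsin) at 72.5 against 1.51 CPM, and Adipoq (adiponectin) at 19.6 against 0.542 CPM. Western diet replicate 2 lay further from replicates 1 and 3 of its group than these from each other: chi-square divided by its degrees of freedom was 14.1 and 12.9 against 7.03. Among the nonpregnant libraries, which share the estimate of spread, control diet replicate 1 lay further still from its group (16.7 and 16.3 against 4.02). Each result below is given with all 6 libraries, and what leaving out control replicate 3 changed is given after the gene groups.

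edgeR's quasi-likelihood test called 136 of 15476 genes at an adjusted p under 0.05, which is 0.879% of those tested. Of these, 100 were higher on the Western diet (0.646% of genes tested) and 36 lower (0.233%). The changes were mostly modest: the absolute log2 fold change of called genes ran from 0.25 to 3.92 with a median of 0.61, and 20 genes rose and 7 fell by at least 2-fold. The 3 Western diet libraries lay wholly above or wholly below the 3 control libraries for each of the 136, where 19.1% of all genes tested had groups that did not overlap. Of the 136, 131 are protein coding. Before adjustment, 2259 genes (14.6%) had p under 0.05. Over all genes tested 49.9% had positive changes. The count rests on single libraries: it was 33 without Western diet replicate 3, 490 without Western diet replicate 2 and 74 without control replicate 3. In whole tissue, fewer cells of a type and less RNA per cell cannot be told apart. For each gene list below, the shares over all genes to set its counts beside are 0.646% higher, 0.233% lower and 49.9% positive. For groups without overlap they are 9.85% with the Western diet above and 9.28% below. For an unadjusted p under 0.05 in either direction the share is 14.6%.

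**Figure D1:**
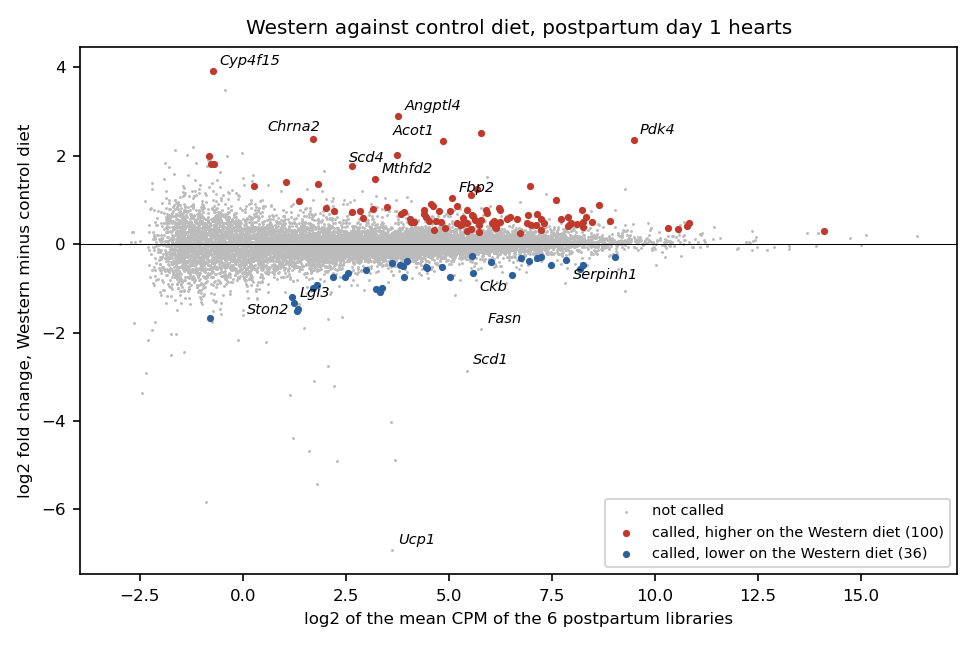
Log2 fold change of each of the 15476 genes tested (y axis, Western minus control diet, postpartum) against the log2 of its mean CPM over the 6 postpartum libraries (x axis); red and blue points are the 100 higher and 36 lower genes at an adjusted p under 0.05, grey points the rest. The genes of fat tissue that were high in 1 control library, such as Ucp1, Scd1 and Fasn, lie below 0 in grey; each was at least 5-fold higher in that library than in any other postpartum one.

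Genes of fatty acid use were among those that rose, and 15 of the 100 are on a list of PPAR alpha targets. The thioesterases, which release fatty acids from coenzyme A, come first here. Acot1, the cytosolic acyl-CoA thioesterase, stood at 10.1, 8.56 and 10.1 CPM in the 3 control libraries and at 43.3, 31.0 and 70.3 CPM in the 3 Western diet libraries. The lowest Western diet value was 3.07 times the highest control value. Its log2 fold change was 2.33 (SE 0.26, adjusted p = 0.00189). Acot2, its mitochondrial relative, stood at 70.4, 78.3 and 66.2 CPM in control and 175, 122 and 238 CPM in Western diet hearts (log2 fold change 1.32, SE 0.18, adjusted p = 0.00603). In both genes Western diet replicate 3 was the highest library and replicate 2 the lowest of its group. Acsf2, a mitochondrial acyl-CoA synthetase, rose, with 31.2, 32.9 and 32.8 CPM on control and 53.6, 48.2 and 64.5 CPM on Western diet (log2 fold change 0.78, SE 0.09, adjusted p = 0.00342). These 3 were the called members among the 18 synthetases and thioesterases tested, 12 of which had positive changes, with a median of 0.09. Acot4, another thioesterase of the same cluster, had a log2 fold change of 1.09 (adjusted p = 0.0748), and Acsl1, the main long-chain synthetase of heart muscle, one of 0.22 (adjusted p = 0.307).

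Acot1 and Acot2 lie next to each other on chromosome 12 and are close copies, which bears on how reads could be told apart. Their coding sequences are 1257 and 1359 bases long in GENCODE M21 (GRCm38) and share an identical run of 273 bases, all within exon 3 of each gene. Of the 50-base windows of the Acot1 transcripts, 19.2% also occur in transcripts of another gene, most often Acot2, and of those of Acot2, 27.7%. The shared run lies at chr12:84017006-84017278 in Acot1 and at chr12:83992728-83993000 in Acot2, both on the + strand, and is shown because a read that falls within it fits both genes equally.
Acot1 and Acot2, shared coding run: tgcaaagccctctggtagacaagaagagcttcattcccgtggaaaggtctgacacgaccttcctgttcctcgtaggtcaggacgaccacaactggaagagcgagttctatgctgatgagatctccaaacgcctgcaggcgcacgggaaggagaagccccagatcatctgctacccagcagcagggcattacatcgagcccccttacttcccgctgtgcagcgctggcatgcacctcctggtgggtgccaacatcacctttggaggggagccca
The split of counts between the 2 genes is uncertain, since how the authors' counting treated such reads is not given in the sources used here. Most windows of either gene occur in no other gene's transcripts.

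Genes of uptake, and of the choice between fatty acids and glucose, also passed. Pdk4, the kinase that inactivates pyruvate dehydrogenase, stood at 353, 169 and 189 CPM in control and at 480, 2083 and 1048 CPM in Western diet hearts. The groups did not overlap, but the spread was wide: the lowest Western diet library was 1.36 times the highest control one, while Western diet replicate 2 lay far above all. The log2 fold change was 2.35 (SE 0.43, adjusted p = 0.0198). Angptl4, a secreted inhibitor of lipoprotein lipase, stood at 3.47, 3.33 and 2.89 CPM in control and 7.92, 39.9 and 24.9 CPM in Western diet hearts (log2 fold change 2.90, SE 0.54, adjusted p = 0.0198), again with replicate 2 highest and replicate 1 lowest in the Western diet group. Both calls were lost with edgeR's robust option (adjusted p = 0.102 for Pdk4 and 0.103 for Angptl4), that of Angptl4 also with limma-voom (adjusted p = 0.0951), and that of Pdk4 with only the postpartum libraries in the fit (adjusted p = 0.0708), at similar fold changes. Pdk1, a second kinase of the same complex, rose, with 184, 211 and 218 CPM on control and 277, 253 and 292 CPM on Western diet (log2 fold change 0.42, SE 0.07, adjusted p = 0.0128). The 2 kinases were the called members among 14 genes of pyruvate dehydrogenase and its control, whose median was 0.03; the catalytic subunit Pdha1 had a log2 fold change of 0.11 (adjusted p = 0.483) and Pdk2 one of 0.08 (adjusted p = 0.697). Slc27a1, a fatty acid transport protein, rose, with 161, 185 and 167 CPM on control and 221, 246 and 295 CPM on Western diet (log2 fold change 0.57, adjusted p = 0.0172). Of the 10 uptake and lipoprotein lipase genes tested, 2 rose and 9 had positive changes (median 0.35). Cd36, the main fatty acid translocase, had a log2 fold change of 0.51 (adjusted p = 0.0536), and lipoprotein lipase itself, Lpl, one of 0.16 (adjusted p = 0.417). In the carnitine shuttle, 1 of 9 genes rose, Mlycd, which breaks down the malonyl-CoA that holds the shuttle back (99.0, 107 and 92.1 CPM on control and 122, 145 and 152 CPM on Western diet; log2 fold change 0.49, adjusted p = 0.0309). The shuttle enzymes themselves did not pass: Cpt1b had a log2 fold change of 0.35 (adjusted p = 0.143) and Cpt2 one of 0.40 (adjusted p = 0.0670).

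Genes of mitochondrial beta-oxidation showed small changes, nearly all upward. Of its 18 genes, 5 rose, 17 had positive changes and 14 had all 3 Western diet libraries above all 3 controls, where 9.85% of all genes did; the median log2 fold change was 0.34. Decr1, which reduces the double bonds of unsaturated chains, stood at 370, 430 and 384 CPM in control and 577, 520 and 608 CPM in Western diet hearts (log2 fold change 0.53, SE 0.08, adjusted p = 0.00775). Hadha and Hadhb encode the alpha and beta subunits of the trifunctional protein, which carries out the last steps of each round on long chains. Hadha stood at 1476, 1673 and 1441 CPM in control and 2098, 1896 and 2363 CPM in Western diet hearts (log2 fold change 0.47, SE 0.09, adjusted p = 0.0198). Hadhb stood at 1431, 1594 and 1470 CPM in control and 2003, 1854 and 2160 CPM in Western diet hearts (log2 fold change 0.42, SE 0.07, adjusted p = 0.00813). The 3 Western diet libraries stood in the same order in both genes, with replicate 3 highest and replicate 2 lowest. Acadl, the long-chain dehydrogenase (0.36, adjusted p = 0.0365), and Eci1, an enoyl-CoA isomerase (0.38, adjusted p = 0.0394), rose as well on the log2 scale. Just outside the threshold lay Acadvl, the very long-chain dehydrogenase (0.36, adjusted p = 0.0590), Acaa2, the thiolase (0.47, adjusted p = 0.0629), and Acadm, the medium-chain dehydrogenase (0.32, adjusted p = 0.0751).

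Hadha and Hadhb are read in opposite directions from starts that lie 85 bases apart, so the same stretch of DNA stands before both. It lies at chr5:30155163-30155247 (GRCm38.p6; GENCODE M21 gene starts), is written on the + strand, with Hadha read leftward from its left end and Hadhb rightward from its right end, and is shown because the 2 genes rose by nearly the same amount.
Hadha and Hadhb, between the starts: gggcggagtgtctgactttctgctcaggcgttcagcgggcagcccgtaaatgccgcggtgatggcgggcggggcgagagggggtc
Among the 847 head-to-head pairs of tested genes whose starts lie within 1000 bases of each other, 2 had both genes called. The other was Elmod3, a regulator of small GTPases, with Retsat, which saturates retinol, at chr6:72598414-72598474; these 2 were chosen for mention after their values were seen. Retsat stood at 51.5, 62.1 and 54.1 CPM in control and 96.1, 83.4 and 107 CPM in Western diet hearts (log2 fold change 0.78, adjusted p = 0.00775). Elmod3 stood at 15.5, 18.4 and 14.5 CPM on control and 23.3, 30.1 and 24.6 CPM on Western diet (log2 fold change 0.69, adjusted p = 0.0313). The 61 bases between their starts, on the + strand, are shown for comparison with the pair above.
Elmod3 and Retsat, between the starts: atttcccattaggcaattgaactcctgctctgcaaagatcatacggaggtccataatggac

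Among 35 genes of peroxisomes 4 rose, against 0.646% of all genes, and 24 had positive changes, against 49.9%. Their median was 0.05. Pex11a, which drives the division of peroxisomes, stood at 17.5, 17.5 and 16.4 CPM in control and 25.5, 26.1 and 27.5 CPM in Western diet hearts. Replicates were tight in both groups and the lowest Western diet value was 1.46 times the highest control value (log2 fold change 0.62, SE 0.07, adjusted p = 0.00189). Cat, the catalase that breaks down peroxide made by peroxisomal oxidation, stood at 184, 188 and 187 CPM in control and 276, 244 and 341 CPM in Western diet hearts (log2 fold change 0.62, SE 0.09, adjusted p = 0.00775). The membrane protein Pxmp4 rose by 0.36 (adjusted p = 0.0406) on the log2 scale. The import receptor Pex5 (0.03, adjusted p = 0.896) and the multifunctional enzyme Hsd17b4 (0.17, adjusted p = 0.334) did not pass.

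Of 24 genes of lipid droplets and triglyceride turnover 3 rose, and the median was 0.15. Pnpla2, the triglyceride lipase that starts the breakdown of droplets, stood at 259, 311 and 280 CPM in control and 541, 407 and 628 CPM in Western diet hearts (log2 fold change 0.89, SE 0.13, adjusted p = 0.00775). Lipe, hormone-sensitive lipase, which takes the next step, stood at 40.0, 47.7 and 51.9 CPM on control and 62.5, 86.6 and 79.4 CPM on Western diet (log2 fold change 0.71, adjusted p = 0.0198). Gpam, which instead begins the synthesis of triglyceride, stood at 101, 123 and 102 CPM on control and 129, 202 and 193 CPM on Western diet (log2 fold change 0.68, adjusted p = 0.0323). The 3 thus belong to both breakdown and synthesis. The droplet coat genes Plin2 (0.45, adjusted p = 0.108) and Plin5 (0.43, adjusted p = 0.292) did not pass. Mttp, which loads lipid onto lipoproteins, rose, with 6.5, 6.78 and 6.16 CPM on control and 11, 10.4 and 12.4 CPM on Western diet (log2 fold change 0.80, SE 0.12, adjusted p = 0.00775). Scd4, a heart-enriched desaturase that makes monounsaturated fatty acids, stood at 4.49, 6.24 and 5.22 CPM in control and 23.8, 11.7 and 28.5 CPM in Western diet hearts (log2 fold change 2.01, SE 0.30, adjusted p = 0.00775), with replicate 2 again the lowest of the Western diet group. In the same list of 22 fatty acid synthesis genes, Hsd17b12, a step of chain elongation, fell, with 24.9, 23.2 and 30.4 CPM on control and 17.4, 19.6 and 16.9 CPM on Western diet (log2 fold change -0.54, adjusted p = 0.0165). Ucp2, a mitochondrial carrier induced by fatty acids, rose by 0.47 (adjusted p = 0.0323), while Ucp3, its muscle relative, stood at 37.3, 28.0 and 28.9 CPM on control and 33.8, 168 and 68.5 CPM on Western diet (log2 fold change 1.52, adjusted p = 0.0794).

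**Figure D2:**
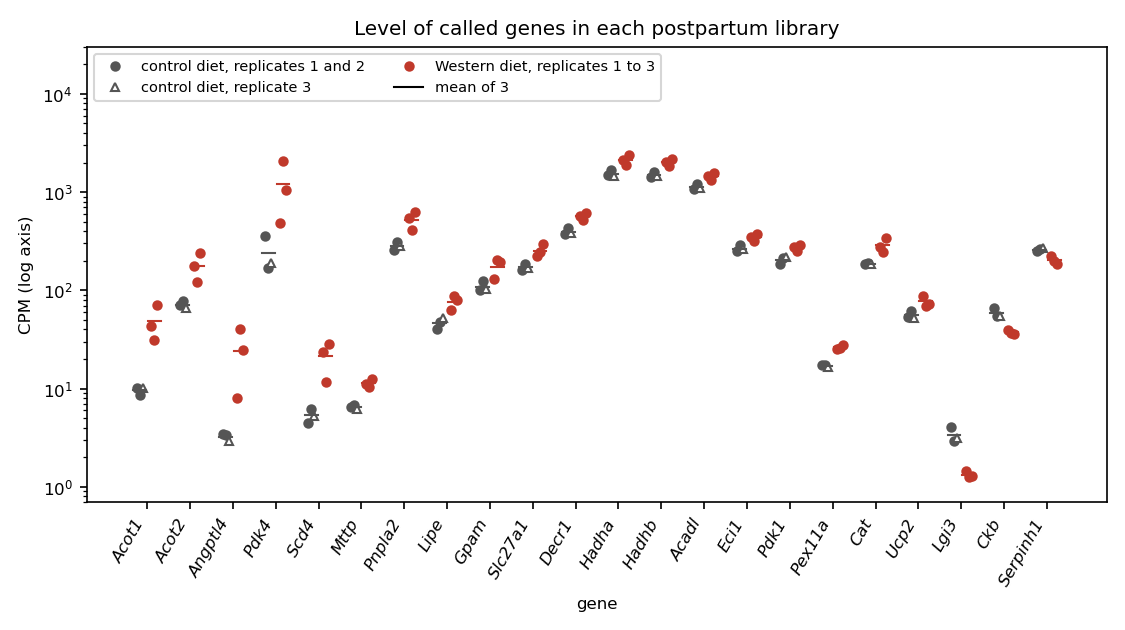
CPM (y axis, log scale) of 22 called genes (x axis) in each of the 6 postpartum libraries: grey circles are control diet replicates 1 and 2, open triangles control diet replicate 3, red circles Western diet replicates 1 to 3 from left to right, and bars the mean of 3. The triangles lie close to the grey circles for these genes, and the red points of Pdk4, Angptl4, Acot1 and Scd4 spread widely.

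On the list of PPAR alpha targets 15 of 33 tested members rose, against 0.646% of all genes, and all 33 had positive changes, against 49.9%. The median log2 fold change was 0.47, beside a median of 0.00 over all genes. All 3 Western diet libraries lay above all 3 controls in 26 of the 33, where 9.85% of all genes did. The list shares members with those above, and 3 of its 36 genes were too low to test. Like the other lists, it was chosen with earlier results of these data known, so its shares describe the data and test nothing. The receptors and coactivators of this pathway had no call. Among 20 PPAR, ERR and coactivator genes 0 passed, DESeq2 and limma-voom called 0, and the median was 0.06. An unadjusted p under 0.05 was reached by 7, 5 higher and 2 lower, where 14.6% of all genes did in either direction. Pparg, the member with the smallest p, had a log2 fold change of 0.39 (adjusted p = 0.156), and 0.53 without control replicate 3 (adjusted p = 0.0904). All 3 Western diet libraries lay above all 3 controls for Pparg. Ppara stood at 32.4, 28.9 and 36.0 CPM in control and 30.4, 23.6 and 29.8 CPM in Western diet hearts (log2 fold change -0.22, adjusted p = 0.428). Ppargc1a, the coactivator of mitochondrial genes, had a log2 fold change of 0.03 (adjusted p = 0.953) and Esrra one of 0.08 (adjusted p = 0.750). Few genes of the later stages of oxidation passed. Of 18 genes of the tricarboxylic acid cycle 0 passed (median 0.07), with 3 at an unadjusted p under 0.05. Of 73 nuclear-encoded respiratory chain genes 0 passed (median 0.06, 67 positive), with 2 at an unadjusted p under 0.05. DESeq2 and limma-voom called 0 in both lists. Of the 13 mitochondrially encoded proteins 1 rose, mt-Nd2, a subunit of complex I (15713, 16089 and 15501 CPM on control and 19917, 19926 and 18704 CPM on Western diet; log2 fold change 0.31, adjusted p = 0.0359), with all 13 positive (median 0.22). Mitochondrial genes together took 19.3 ± 0.14% of counts in control and 21.1 ± 0.59% in Western diet hearts (SD, n = 3). The difference of 1.86 points had p = 0.10 in a two-sided exact permutation test, the smallest p that 3 against 3 allows. Of 27 genes of glucose transport and glycolysis 0 passed (median 0.01); 3 had an unadjusted p under 0.05, DESeq2 called 1 and limma-voom 0.

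**Figure D3:**
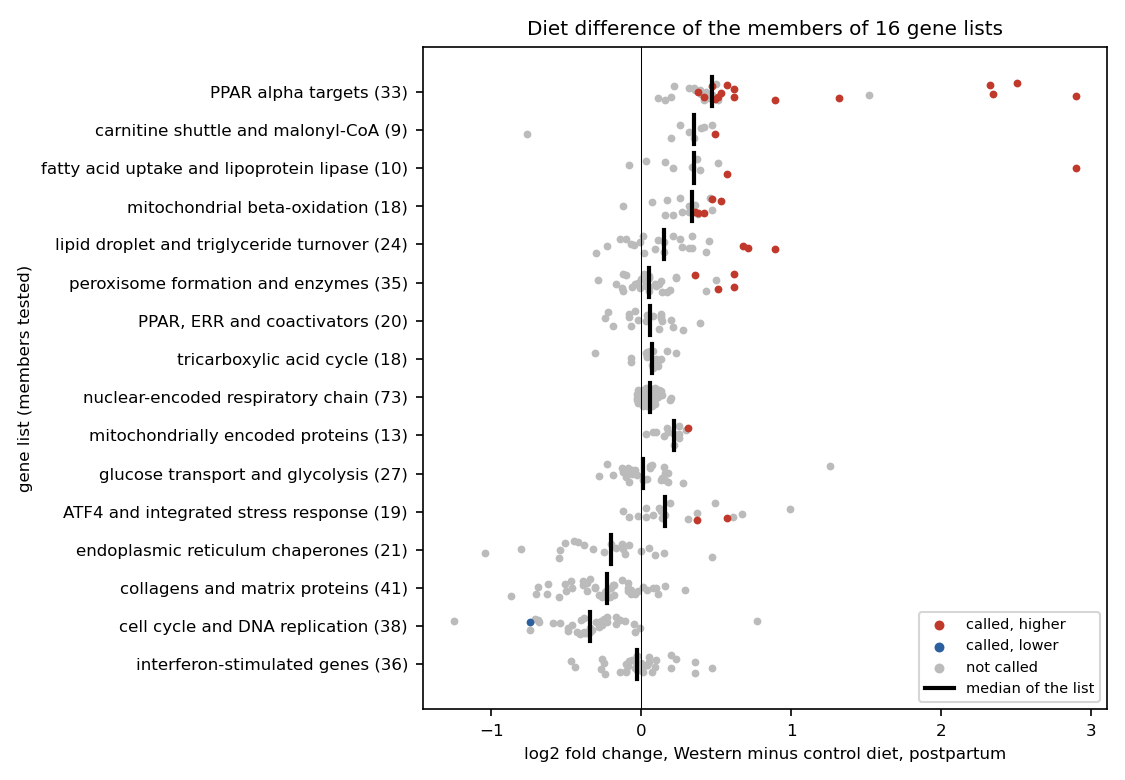
Log2 fold change (x axis, Western minus control diet, postpartum) of each tested member of 16 gene lists (y axis, with the number tested); red and blue points are called higher and lower, grey points are not called, and the black bar is the median of the list. The PPAR alpha targets all lie right of 0 with a median of 0.47, while collagens and cell cycle genes lie mostly left of 0 with medians of -0.23 and -0.34.

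The start regions of the called genes were searched for short motifs in RefSeq promoters (GRCm38.p6), from 250 bases before to 50 after each start, on both strands. An entry was found for 72 of the 100 higher and 26 of the 36 lower genes. The full repeat, 2 copies of AGGTCA with 1 base of any kind between them, the textbook form of the site that PPAR alpha binds with its RXR partner, was in 0 of the 72 and 0 of the 26, and in 0.0447% of all 11189 tested genes with an entry. Full repeats were so rare that none was likely to be met in so few genes either way, so no conclusion is drawn from their absence. The single unit AGGTCA, which is part of the full repeat, was in 6 of the 72 and 6 of the 26, and in 14.9% of all. The forkhead letters GTAAACA were in 3 of the 72 and 0 of the 26, and in 3.20% of all, and the E-box CACGTG in 10 and 4, and in 11.5% of all.

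A few other called genes belong to amino acid and one-carbon metabolism or to the response led by the transcription factor ATF4. Mthfd2, a mitochondrial enzyme of folate metabolism, stood at 4.32, 5.42 and 5.03 CPM in control and 10.6, 17.1 and 13.1 CPM in Western diet hearts, the lowest of the latter being 1.96 times the highest control value (log2 fold change 1.47, SE 0.19, adjusted p = 0.00496). Asns, asparagine synthetase, stood at 2.86, 3.18 and 4.28 CPM on control and 5.71, 6.12 and 5.65 CPM on Western diet (log2 fold change 0.76, SE 0.15, adjusted p = 0.0365). Both are known ATF4 targets. They were the called members among 18 serine, one-carbon and asparagine genes, whose median was 0.05; Phgdh, the first enzyme of serine synthesis, had a log2 fold change of 0.78 (adjusted p = 0.122). Atf4 itself stood at 57.1, 65.0 and 63.3 CPM in control and 82.2, 74.0 and 82.7 CPM in Western diet hearts (log2 fold change 0.37, adjusted p = 0.0425), and its relative Atf5 at 55.4, 73.1 and 78.1 CPM on control and 103, 107 and 96.6 CPM on Western diet (log2 fold change 0.57, adjusted p = 0.0365). Of the 19 genes of the integrated stress response 2 rose, those 2 factors, and 16 were positive (median 0.16). With only the postpartum libraries in the edgeR fit, the calls of Asns, Atf5 and Atf4 were lost (adjusted p = 0.0945, 0.0697 and 0.0660). That of Mthfd2 was kept (adjusted p = 0.0221). Many genes of fatty acid use named above also lost their calls in that fit, as given after the gene groups. Trib3 had a log2 fold change of 0.67 (adjusted p = 0.0550) and Ddit3, the factor CHOP, one of 0.13 (adjusted p = 0.744). Chaperones of the endoplasmic reticulum lay on the other side, with 0 of 21 past the test and 16 negative. Their median was -0.20, and -0.08 without control replicate 3. Of the 21, 11 had negative changes with an unadjusted p under 0.05, and DESeq2 called 6 lower and 1 higher, limma-voom 0. Deptor, an inhibitor of mTOR, rose, with 18, 18.4 and 19.8 CPM on control and 27.1, 26.3 and 26.9 CPM on Western diet (log2 fold change 0.52, SE 0.07, adjusted p = 0.00496). Eif4ebp1, which restrains translation when mTOR is low, rose, with 59.1, 62.5 and 59.9 CPM on control and 81.7, 79.4 and 88.1 CPM on Western diet (log2 fold change 0.46, adjusted p = 0.0128). These were the 2 called genes among 32 of insulin, IGF and mTOR signalling (median 0.07).

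The composite element TGATGNAA, through which C/EBP and ATF factors act, was in the start regions of 2 of the 72 higher genes, Asns and Gpam, of 1 of the 26 lower genes, Tmem35a, and of 2.79% of all 11189. In Asns it begins 23 bases before the RefSeq start, and the gene start that GENCODE M21 gives lies further upstream. The 30 bases around it lie at chr6:7693214-7693243 (GRCm38.p6) and are shown on the - strand, on which the gene is read, with the element in capitals.
Asns: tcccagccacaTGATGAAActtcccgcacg

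Other genes that rose have varied roles. Fbp2, the muscle form of fructose bisphosphatase, stood at 20.3, 25.6 and 21 CPM in control and 45.8, 36.7 and 54.5 CPM in Western diet hearts (log2 fold change 1.04, SE 0.15, adjusted p = 0.00603). Scn4b, a beta subunit of sodium channels, stood at 42.4, 41.8 and 47.4 CPM on control and 64.5, 80.3 and 81.2 CPM on Western diet (log2 fold change 0.78, adjusted p = 0.00775), and was the called gene among 31 ion channel and gap junction genes. Most of that list went the other way, with 21 of 31 negative (median -0.08). All Western diet libraries lay below all controls in 12 (9.28% of all genes) and above in 4 (9.85%). An unadjusted p under 0.05 was reached by 10 lower and 3 higher genes. DESeq2 called 4 lower and 1 higher, and limma-voom 1 higher. The lowest Western diet library was 1.43 times the highest control library for Fbp2 and 1.36 times for Scn4b. Chrna2, a nicotinic acetylcholine receptor subunit, stood at 1.29, 1.16 and 0.714 CPM on control and 4.41, 4.81 and 7.14 CPM on Western diet (log2 fold change 2.37, SE 0.34, adjusted p = 0.00603), a large relative change at a low level. Timp4, the matrix protease inhibitor typical of heart, rose, with 37.3, 26.1 and 25.1 CPM on control and 77.5, 52.0 and 62.8 CPM on Western diet (log2 fold change 1.12, adjusted p = 0.0323). Osmr, the receptor of oncostatin M, rose, with 19.7, 19.8 and 20.9 CPM on control and 40.9, 25.6 and 35.3 CPM on Western diet (log2 fold change 0.75, adjusted p = 0.0141). Gabarapl1, a protein of autophagosome formation, rose, with 85.5, 79.1 and 80.7 CPM on control and 106, 120 and 137 CPM on Western diet (log2 fold change 0.57, adjusted p = 0.00775). The last was the called gene among 23 of FOXO and muscle atrophy, 20 of which were positive (median 0.16). Adh1, an alcohol and retinol dehydrogenase, rose by 0.73 (adjusted p = 0.00787), and Bmp6, a growth factor, by 0.51 (adjusted p = 0.0198) on the log2 scale. Cyp4f15, a cytochrome P450 that hydroxylates fatty acids, stood at 0, 0.194 and 0.0324 CPM on control and 0.939, 1.27 and 1.20 CPM on Western diet; its log2 fold change of 3.92 (SE 0.60, adjusted p = 0.00775) rests on very few control counts, and the 0 allows up to 0.105 CPM by counting error.

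Further enzymes that passed handle lipids or oxygen radicals; of these Ephx2 and Xdh were chosen for mention after their values were seen. Ephx2, the soluble epoxide hydrolase that degrades fatty acid epoxides, stood at 213, 237 and 211 CPM in control and 376, 322 and 435 CPM in Western diet hearts (log2 fold change 0.78, adjusted p = 0.00787). Xdh, xanthine dehydrogenase, stood at 90.4, 101 and 88.6 CPM on control and 167, 132 and 147 CPM on Western diet (log2 fold change 0.67, adjusted p = 0.0198). Nceh1, a hydrolase of cholesterol esters, rose, with 210, 206 and 207 CPM on control and 267, 302 and 284 CPM on Western diet (log2 fold change 0.45, SE 0.07, adjusted p = 0.00775). The lowest Western diet library was 1.27 to 1.36 times the highest control library in these 3 genes.

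The 36 genes that fell have varied roles. Lgi3, a secreted protein best known from brain, stood at 4.05, 2.94 and 3.11 CPM in control and 1.43, 1.27 and 1.28 CPM in Western diet hearts (log2 fold change -1.34, SE 0.18, adjusted p = 0.00522). Ckb, the brain form of creatine kinase, which is also expressed in fetal heart, stood at 66.3, 55.2 and 54.7 CPM on control and 39.8, 37.0 and 36.1 CPM on Western diet (log2 fold change -0.64, SE 0.09, adjusted p = 0.00527), while the muscle form Ckm had a log2 fold change of 0.05 (adjusted p = 0.808) and the mitochondrial form Ckmt2 one of 0.09 (adjusted p = 0.694). The 3 Western diet libraries lay close together in both Lgi3 and Ckb, below every control. Plekhh1, a protein with membrane- and actin-binding domains, fell, with 4.01, 3.87 and 3.18 CPM on control and 1.31, 1.22 and 1.33 CPM on Western diet (log2 fold change -1.52, adjusted p = 0.0166). The log2 fold changes of 3 further genes that fell were -1.20 for Ston2, an adaptor of endocytosis, -1.01 for Lingo3, and -1.08 for Abat, which degrades GABA. Fgf16, a growth factor made by heart muscle, stood at 17.9, 22.4 and 15.8 CPM on control and 10.9, 11.9 and 10.8 CPM on Western diet (log2 fold change -0.74, adjusted p = 0.00787). Ppp1r14c, an inhibitor of protein phosphatase 1, stood at 121, 109 and 112 CPM on control and 68.5, 79.4 and 62.7 CPM on Western diet (log2 fold change -0.70, adjusted p = 0.00775). Smtn (smoothelin), which binds actin in contractile smooth muscle, stood at 216, 190 and 211 CPM on control and 137, 164 and 146 CPM on Western diet (log2 fold change -0.46, adjusted p = 0.00813). Ndrg4, a gene of heart muscle growth, stood at 361, 375 and 305 CPM on control and 232, 238 and 236 CPM on Western diet (log2 fold change -0.56, adjusted p = 0.00922).

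Matrix and cell division genes mostly had negative changes on the Western diet, and few passed the test. Of 41 collagens and matrix proteins 0 passed, 34 had negative changes and 14 had all Western diet libraries below all controls, where 9.28% of all genes did; the median was -0.23. An unadjusted p under 0.05 was reached by 20, all lower, and DESeq2 called 2 and limma-voom 0. Col1a1, a chain of type I collagen, stood at 129, 99.7 and 140 CPM in control and 78.2, 100 and 73.9 CPM in Western diet hearts (log2 fold change -0.55, adjusted p = 0.109), with the lowest control library just below the highest Western diet one. Of 21 collagen processing genes 1 fell, Serpinh1, the chaperone that folds procollagen, with 249, 262 and 269 CPM on control and 221, 198 and 187 CPM on Western diet (log2 fold change -0.36, SE 0.06, adjusted p = 0.0177), and the median was -0.18. Of 38 cell cycle and DNA replication genes 1 fell, Cenpf, a kinetochore protein, with 36.0, 51.0 and 35.8 CPM on control and 26.2, 22.9 and 24.2 CPM on Western diet (log2 fold change -0.74, adjusted p = 0.0499), and 37 were negative (median -0.34). That call was at the edge of the threshold and was lost in each of the 6 fits that left out 1 postpartum library. Of the 38, 5 had all Western diet libraries below all controls, where 9.28% of all genes did. An unadjusted p under 0.05 was reached by 7, all lower, where 14.6% of all genes did in either direction. DESeq2 called 2 and limma-voom 0. Cdkn1a, the inhibitor p21 and the member that lay above 0, had a log2 fold change of 0.77 (adjusted p = 0.368). Of the 29 cytokines and chemokines 0 passed, with 26 positive (median 0.32); 5 had an unadjusted p under 0.05, DESeq2 called 1 and limma-voom 0. Of 18 genes of natriuretic peptides and the fetal program 0 passed (median 0.15); 6 had an unadjusted p under 0.05, DESeq2 called 1 and limma-voom 0. Nppa, the atrial natriuretic peptide, stood at 84.3, 95.4 and 98.8 CPM on control and 42.3, 61.0 and 51.7 CPM on Western diet (log2 fold change -0.85, adjusted p = 0.0629), all 3 Western diet values being below all 3 controls.

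Markers of other cell types moved with the diet in a few cases, and their part in the results above was not tested. The 16 endothelial markers summed to 2107 to 2201 CPM in control and 2416 to 2677 CPM in Western diet hearts, with 0 called by edgeR, 7 at an unadjusted p under 0.05, 3 called by DESeq2, and 15 positive (median 0.15). Much of that shift was Fabp4, a fatty acid binding protein, at 473 to 575 CPM on control and 676 to 748 CPM on Western diet. Pecam1 stood at 181 to 191 and 201 to 225 CPM. The 10 atrial markers summed to 196 to 208 against 135 to 162 CPM, of which Nppa was 84.3 to 98.8 and 42.3 to 61.0 CPM, with Myl7 and Sln near 0 throughout. The 15 Schwann and neural markers summed to 68.7 to 77.9 against 54.5 to 62.8 CPM (11 tested, 0 called by edgeR, DESeq2 or limma-voom, 5 at an unadjusted p under 0.05, median -0.37). The summed level of the 15 fibroblast markers overlapped between the groups, at 2509 to 2723 and 2437 to 2924 CPM, but their median log2 fold change was -0.20 (-0.25 without control replicate 3), beside -0.23 for the collagens and matrix proteins. Of the 15, 7 were lower and 2 higher at an unadjusted p under 0.05, edgeR and limma-voom called 0, and DESeq2 called 1 in each direction. The 18 macrophage markers overlapped, at 428 to 474 and 404 to 473 CPM. The 12 brown adipocyte markers summed to 3441 to 3637 CPM on control and 3950 to 4527 CPM on Western diet, without overlap. Most of that sum was Fabp3, a fatty acid binding protein that heart muscle also makes, at 2425, 2482 and 2247 CPM on control and 3178, 2851 and 3367 CPM on Western diet, and the median log2 fold change of the 8 tested was 0.07. Lymphocyte markers summed to 11.7 to 15.8 against 10.4 to 11.6 CPM and mesothelial markers to 15.9 to 19.9 against 15.3 to 15.4 CPM, low sums that did not overlap either. Of 10 white adipocyte markers tested 1 was called, Lipe, and the median log2 fold change was -2.39 with all libraries and -0.31 without control replicate 3. Their sum was 532, 614 and 843 CPM in control and 822, 855 and 776 CPM in Western diet hearts, most of it Fabp4, which endothelium also makes.

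Leaving out control replicate 3, the library with fat tissue genes, left 74 called genes of 15472 tested (0.478%), 53 higher and 21 lower. Of the 136 calls 62 were kept and 12 genes were called anew. All 136 kept their direction, and their log2 fold changes shifted by a median of 0.04 and at most 0.36. Leaving out control replicate 1 or 2 instead, libraries with no such genes, kept 57 and 83 of the 136. Among the 15 PPAR alpha targets called with all libraries, 9 were called without replicate 3, and the list's median went from 0.47 to 0.43. Acot1 had a log2 fold change of 2.36 (adjusted p = 0.0113), Pex11a one of 0.59 (adjusted p = 0.0113) and Pnpla2 one of 0.88 (adjusted p = 0.0327) without it. Calls lost without it, at nearly the same fold change, were those of Pdk4 (2.20, adjusted p = 0.0889), Angptl4 (2.82, adjusted p = 0.0889), mt-Nd2 (0.29, adjusted p = 0.0943), Hadha (0.43, adjusted p = 0.0842), Slc27a1 (0.55, adjusted p = 0.0677), Gpam (0.64, adjusted p = 0.107) and Serpinh1 (-0.34, adjusted p = 0.0771). The calls kept in all 6 fits that left out 1 postpartum library numbered 31 and included Acot1, Acot2, Acsf2, Pex11a, Cat, Decr1, Pnpla2, Mttp, Scd4, Nceh1, Mthfd2, Deptor, Fbp2, Scn4b, Lgi3 and Ckb. Of the other genes named above, Hadhb, Pdk1, Retsat, Ephx2, Fgf16, Ppp1r14c, Smtn, Ston2 and Ndrg4 were called in 5 of the 6 fits, and Osmr and Hsd17b12 in 4. Calls kept in 3 of the 6 or fewer were those of Pdk4, Slc27a1, Mlycd, Gpam, Lipe, Pxmp4, Eif4ebp1, Elmod3, Plekhh1 and Serpinh1, kept in 3, of Angptl4, Hadha, Acadl, Eci1, Asns, Atf5, Timp4, Bmp6, Ucp2, Xdh and Lingo3, kept in 2, of Atf4, mt-Nd2 and Abat, kept in 1, and of Cenpf, kept in 0. These fits still take the spread from both states. With only the 6 postpartum libraries in the edgeR fit, 71 genes were called. Acot1, Acot2, Acsf2, Pex11a, Cat, Decr1, Hadhb, Pnpla2 and Angptl4 kept their calls there (adjusted p from 0.0208 to 0.0495). Calls lost there, besides those given above, included Slc27a1, Mlycd, Hadha, Acadl, Eci1, Pxmp4, Lipe, Gpam, Pdk1, Ucp2 and mt-Nd2 (0.0540 to 0.0952). Osmr, Bmp6, Serpinh1, Hsd17b12, Ston2, Abat, Lingo3 and Cenpf were lost too (0.0540 to 0.111). When control replicate 3 was left out and only the postpartum libraries were fitted, 2 genes were called in all, Car4 and Ndrg4, and 0 of the 31 were, with adjusted p from 0.0569 to 0.152; Acot1 had 0.0569, Pex11a 0.0593 and Pnpla2 0.0961.

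The genes that mark control replicate 3 itself were not among the calls. Of the 14 genes at 10 CPM or more there and at least 5-fold over every other postpartum library, 0 were called. Several belong to fat synthesis and can be read only without that library. Fasn, fatty acid synthase, stood at 28.3, 24.6 and 209 CPM in control and 22.4, 21.5 and 25.6 CPM in Western diet hearts; its log2 fold change was -1.92 with all libraries and -0.20 without replicate 3 (adjusted p = 0.143 and 0.517). Scd1, a desaturase, stood at 17.1, 17.9 and 193 CPM on control and 9.75, 10.9 and 11 CPM on Western diet, and was lower in all 3 Western diet libraries than in any control; its log2 fold change went from -2.86 (adjusted p = 0.0770) to -0.74 and passed (adjusted p = 0.0277). Scd4, its relative, rose in both settings (2.01 and 2.0, adjusted p = 0.00775 and 0.0377). Among the other genes called anew were Cacnb2, a calcium channel subunit (-0.61, adjusted p = 0.0377), Slc6a8, the creatine transporter (0.45, adjusted p = 0.0446), and Tnnt1, slow skeletal troponin T (-0.78, adjusted p = 0.0423), chosen for mention after their values were seen.

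**Figure D4:**
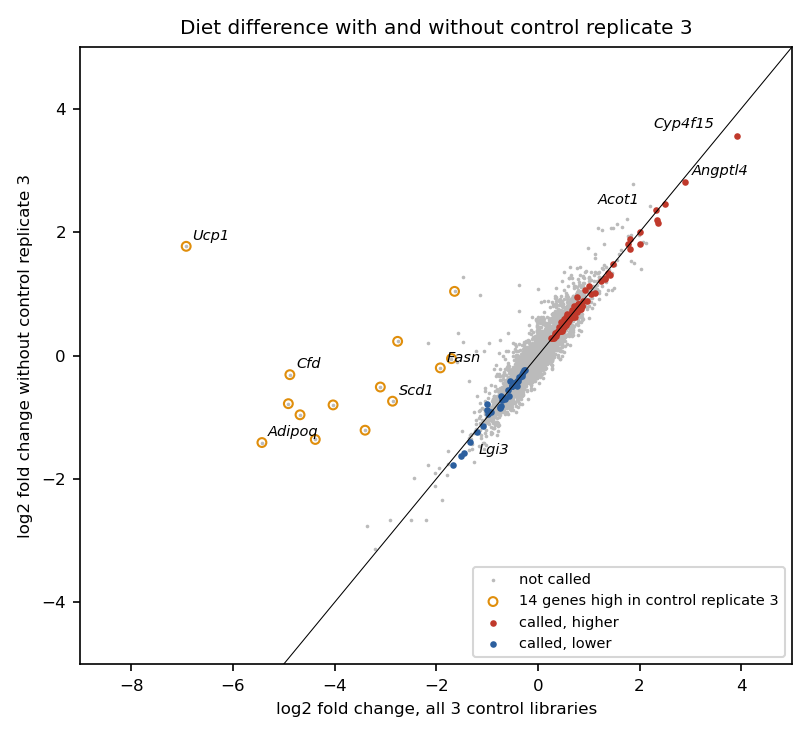
Log2 fold change of each gene (Western minus control diet, postpartum) with all 3 control libraries (x axis) and without control replicate 3 (y axis), with the line of equal values; red and blue points are genes called with all libraries, open orange circles the 14 genes high in that replicate. Called genes stay within 0.36 of the line on the y axis, and the orange circles lie off it.

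The same diet difference in nonpregnant hearts comes from libraries that enter the postpartum test only through the shared estimate of spread. There 9 genes were called (0.0582% of 15476), 7 higher (0.0452%) and 2 lower (0.0129%), and 1483 (9.58%) had an unadjusted p under 0.05. Of the 9, 7 were also among the 136. Of the 100 genes higher postpartum, 89 also had positive changes in nonpregnant hearts, as 49.9% of all genes did, and 52 had all 3 Western diet libraries above all 3 controls, where 6.92% of all genes did. Their median log2 fold change was 0.61 postpartum and 0.23 in nonpregnant hearts. Of the 36 lower genes, 31 were negative in nonpregnant hearts and 18 did not overlap, where 7.84% of all genes did so in that direction; the medians were -0.57 and -0.15. Since the 136 were picked for their postpartum difference, a smaller difference elsewhere is partly set by that choice. The calls of the 136 also drew on the spread within the nonpregnant libraries. The counts without overlap there are therefore not independent of the choice. Scn4b rose in both states (0.78 postpartum and 0.86 in nonpregnant hearts on the log2 scale, adjusted p = 0.0363 for the latter), as did Adh1 (0.73 and 0.82, adjusted p = 0.0363) and Pex11a (0.62 and 0.46, adjusted p = 0.0424). Ndrg4 fell in both (-0.56 and -0.56, adjusted p = 0.0499).

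The difference between the 2 states was tested directly, and 0 genes passed: edgeR's smallest adjusted p of the interaction was 0.0987, and 1390 genes (8.98%) had an unadjusted p under 0.05. DESeq2 called 43 and limma-voom 0. Some of the 136 had small changes in nonpregnant hearts. Pnpla2 had a log2 fold change of 0.07 (SE 0.13) there against 0.89 postpartum, with an unadjusted interaction p of 0.000575 and an adjusted one of 0.357. Cat had a log2 fold change of 0.13 (SE 0.09) against 0.62, and Ckb one of -0.11 (SE 0.09) against -0.64. Serpinh1 had opposite signs, 0.20 (SE 0.06) in nonpregnant and -0.36 in postpartum hearts, with an unadjusted interaction p of 3.03e-05 and an adjusted one of 0.234. The lists around it did likewise, by their medians: collagens and matrix proteins stood at -0.23 postpartum and 0.12 in nonpregnant hearts, and cell cycle genes at -0.34 and 0.27. Interferon-stimulated genes stood at -0.03 postpartum, with 15 of 36 positive, and at 0.48 in nonpregnant hearts, with 36 of 36 positive. PPAR alpha targets were positive in both, at 0.47 and 0.24. None of these list medians carries a test.

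**Figure D5:**
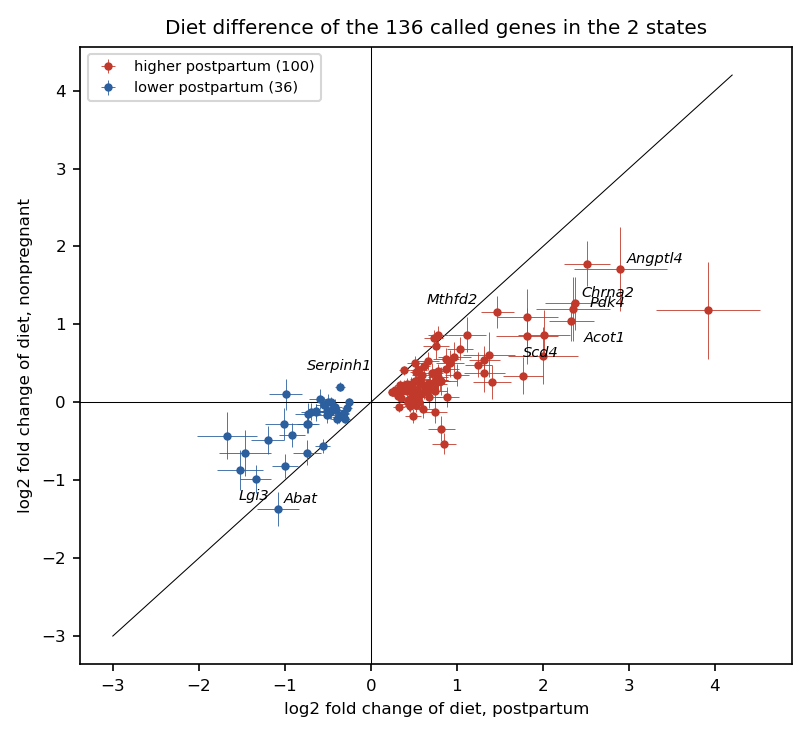
Log2 fold change of diet (Western minus control) of the 136 genes called postpartum, in postpartum hearts (x axis) and nonpregnant hearts (y axis), with bars of 1 standard error and the line of equal values; red genes rose and blue genes fell postpartum. Most points lie on the same side of 0 in both states and nearer to 0 in nonpregnant hearts, for genes that were picked on the x axis.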

How the data were processed

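RNA of 12 mouse heart libraries, 3 in each of 4 groups by diet and state, was sequenced with the NEBNext Ultra RNA kit, per the labels. Reads were aligned to GRCm38 (mm10), with STAR 2.5.2b, featureCounts (Subread 1.5.2) and FastQC named in the submitters' processing notes; the authors deposited raw, not normalized, counts per gene. What strand setting and annotation release the counting used is not given in the sources used here. Genes on opposite strands that overlap (11 called genes with at least 10% of exon bases under such a gene, among them Lipe, Retsat, Gabarapl1 and Fdft1) and close copies (11 called genes with over 10% of transcript windows shared) may share counts.

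Counts of 49315 genes were joined by identifier, the 345 without a symbol being tested but not named. Library totals over the series ran from 22754591 to 29492416 counts. Low genes were removed with filterByExpr (minimum count 10, minimum total 15), leaving 15476, and libraries were scaled by TMM. All 12 libraries were fitted in one edgeR 4.0.16 quasi-likelihood model (R 4.3.3) with a mean per group, so the 4 groups share the spread, and contrasts were tested two-sided, with p-values adjusted by Benjamini-Hochberg over all genes tested (threshold 0.05). SE is the log2 fold change divided by the root of F. DESeq2 1.42.0, limma-voom (limma 3.58.1), other filters and scalings, and leaving out each library were tried. The code was tested on simulated counts.

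Named genes are the 15 rising and 15 falling with the smallest p, all with at least 2-fold change, those called in every fit without 1 postpartum library and, per list, up to 6 called members or, with none called, the member with the smallest p. Other list members that did not pass, Ephx2, Xdh, Retsat, Elmod3 and the genes of control replicate 3 were chosen for mention after their values were seen. The comparison, members and lists were chosen with earlier results of these data known. Tests and counts include a few genes that are not reported here. Sequences and spans come from RefSeq and GENCODE M21 on GRCm38.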

Additional observations from a re-analysis of the deposited data

How the results depend on the processing

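The postpartum count of 136 was 1048 with no low-count filter, 456 by DESeq2 and 71 with only the 6 postpartum libraries fitted. It ran from 33 to 490 over fits without 1 library: 33 without Western diet replicate 3, 490 without Western diet replicate 2, 82 without Western diet replicate 1, 79 without control replicate 1, 74 without control replicate 3 and 258 without control diet nonpregnant replicate 1. Without control replicate 3 and with only postpartum libraries it was 2, Car4 and Ndrg4. DESeq2's size factors, a filter of 1 CPM, the robust option, scaling without mitochondrial genes and limma-voom gave 135 to 163. The nonpregnant count of 9 was 454 with no filter, 5 with the 1 CPM filter, 0 with only the nonpregnant libraries, 95 by DESeq2 and 0 to 18 without 1 library. The interaction count of 0 was 506 with no filter, 1 with the robust option, 43 by DESeq2 and 0 to 53 without 1 library (53 without Western diet postpartum replicate 2, 3 without replicate 1, Serpinh1 among them, and 1 without control postpartum replicate 3). The cause of these shifts was not tested. Over the 69 called genes among the 98 that the rule for named genes picks, 1150 of 1447 values under alternatives stayed past the threshold and 297 did not; 0 changed sign, and each of the 69 lost its call under at least 1 alternative. Fdft1 was called in 1 of the 6 fits without 1 postpartum library. Among genes named here, besides Pdk4 and Angptl4, the robust option lost Timp4, Gpam, Abat, Lingo3 and Cenpf, and limma-voom the last 2. The mitochondrial difference ran from 1.65 to 2.20 points. No paired analysis was possible because the labels of the groups share no replicate numbers.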

Other observations

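Several further gene groups were measured. Of 30 NRF2 and antioxidant genes, which defend against oxidants, 0 passed edgeR's test, 24 had positive changes and the median log2 fold change was 0.13; an unadjusted p under 0.05 was reached by 12 higher genes and 1 lower, and DESeq2 called 5 and limma-voom 0. Sterol synthesis went mostly the other way, with 18 of 24 genes negative and a median of -0.16, although the 1 called gene, Fdft1 (squalene synthase), rose, with 32.8, 35.3 and 30.9 CPM in control and 42.9, 41.6 and 49.3 CPM in Western diet hearts (log2 fold change 0.44, adjusted p = 0.0425). Fdft1 overlaps another gene on the opposite strand over 18.3% of its exon bases. Of 29 genes of TGF-beta signalling 1 rose, the growth factor Bmp6, which stood at 22.5, 25.5 and 21.6 CPM in control and 33.1, 29.2 and 36.9 CPM in Western diet hearts (log2 fold change 0.51, adjusted p = 0.0198). Of 26 sarcomere genes 0 passed edgeR's test, 5 had an unadjusted p under 0.05, DESeq2 called 3 and limma-voom 0, and the median was 0.03.

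Lgals4, a galectin best known from gut, stood at 26.0, 36.8 and 29.3 CPM in control and 58.2, 69.4 and 90.9 CPM in Western diet hearts (log2 fold change 1.25, adjusted p = 0.00496), and Vwa8, a mitochondrial ATPase, at 247, 280 and 237 CPM in control and 387, 335 and 454 CPM in Western diet hearts (log2 fold change 0.62, adjusted p = 0.00787). Lims2, a protein of cell adhesions to matrix, rose postpartum (0.39 on the log2 scale) and in nonpregnant hearts (0.41, adjusted p = 0.0363). Western diet replicate 2 held the highest value of its group for Pdk4, Angptl4 and Ucp3 and the lowest for Acot1, Acot2, Scd4, Pnpla2 and Cat.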
